A study of Mus musculus with 12 samples.

Results

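The mitochondrial respiratory chain genes encoded in the nucleus were followed in mouse knee cartilage after inducible deletion of Sox9, or of Sox8 and Sox9, the transcription factors that maintain chondrocytes. Members were taken by symbol from the deposited table of 14712 genes. All rows that begin with Ndufa, Ndufb, Ndufc, Ndufs or Ndufv (assembly factors Ndufaf left out), Uqcr, Cox4i, Cox5, Cox6, Cox7, Cox8 or Atp5, and the succinate dehydrogenase genes Sdha to Sdhd, gave 82 rows. A pseudogene of Atp5l was dropped, which left 81 members: 37 of complex I, 4 of complex II, 8 of complex III, 16 of complex IV and 16 of complex V, sorted by symbol. Complex I so defined holds Ndufa4, whose protein is now placed with complex IV, and its paralogue Ndufa4l2, and complex V holds Atp5sl, now known as a complex I assembly factor. The cytochrome c1 gene Cyc1 falls outside the prefixes. The rule used no measured value.

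The libraries came from adult mice of 3 months. Articular cartilage and growth plate were cut from frozen knee sections by laser capture, and 10 ng of total RNA went into low-input stranded total RNA libraries. Control mice were Sox9fl/fl or Sox8fl/fl Sox9fl/fl without Cre, and mutants carried the same floxed alleles with AcanCreERT2/+, a tamoxifen-inducible Cre under the aggrecan gene. There were 3 sets: Sox9 at day 7, Sox9 at day 14, and Sox8 Sox9 at day 14. What the days count from is not stated in the labels. Column headers name an R26tdT/+ reporter allele for the Sox9 libraries that the labels do not. Each set had 1 control and 1 mutant library per tissue, so every group (articular control, articular mutant, growth plate control, growth plate mutant) had 3 libraries and there were 12 in all. Regions are not tied to animals in the labels, and controls lacked the Cre allele as well as the deletion, which cannot be told apart.

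Complexes I to IV pass electrons from NADH and succinate to oxygen, complexes I, III and IV pump protons as they do so, and complex V, the ATP synthase, uses the proton gradient to make ATP. Most subunits are encoded in the nucleus and made together with the few encoded in mitochondrial DNA, of which the table listed 0. Cartilage has no blood vessels, and chondrocytes draw most of their ATP from glycolysis. A few subunits come as alternative isoforms: Cox4i2 and Ndufa4l2 are induced by low oxygen, and Cox6a2, Cox7a1 and Cox8b are isoforms of heart and skeletal muscle.

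Promoter sequence is shown for 4 members to which the results return. Ndufa6 passed the test in the mutant growth plate, and Cox6a1 differed between control tissues under 2 of the scalings tried. Cox7a1 and Cox7a2 are alternative isoforms of one subunit with unlike patterns. The windows lie within 250 bases upstream of the RefSeq start (GRCm38.p6, 5′ to 3′ on the gene's strand) and were kept to bases outside annotated exons. Capitals mark matches to GCATGCGC, the core bound by nuclear respiratory factor 1 (NRF1), or to the CCAAT box, on either strand; in Cox6a1 the capitals cover an NRF1 core on each strand, overlapping.
Ndufa6 (chr15:82354323-82354541, minus strand): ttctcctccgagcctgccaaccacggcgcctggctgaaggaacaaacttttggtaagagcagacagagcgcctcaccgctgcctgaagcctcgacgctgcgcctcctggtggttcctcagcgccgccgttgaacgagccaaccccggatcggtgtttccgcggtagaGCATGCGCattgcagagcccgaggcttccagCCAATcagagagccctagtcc
Cox6a1 (chr5:115348982-115349129, minus strand): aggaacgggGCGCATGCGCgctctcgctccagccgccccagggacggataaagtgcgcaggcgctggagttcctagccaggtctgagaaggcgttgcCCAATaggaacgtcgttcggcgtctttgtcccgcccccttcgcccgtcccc
Cox7a1 (chr7:30183921-30184143, plus strand): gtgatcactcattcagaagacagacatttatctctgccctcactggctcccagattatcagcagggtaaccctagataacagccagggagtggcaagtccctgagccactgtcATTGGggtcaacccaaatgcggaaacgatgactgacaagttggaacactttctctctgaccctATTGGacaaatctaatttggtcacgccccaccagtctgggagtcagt
Cox7a2 (chr9:79759879-79760103, minus strand): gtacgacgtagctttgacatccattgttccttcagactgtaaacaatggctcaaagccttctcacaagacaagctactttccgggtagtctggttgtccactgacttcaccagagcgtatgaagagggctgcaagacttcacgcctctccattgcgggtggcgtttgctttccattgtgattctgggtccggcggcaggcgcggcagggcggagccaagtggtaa
Ndufa6 and Cox6a1 hold an NRF1 core, Cox7a1 holds 2 CCAAT boxes without it, and in the window of Cox7a2 none of the letters searched was found.

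RefSeq windows were found for 67 of the 81 members, 2 of them under another symbol. An NRF1 core (GCATGCGC, with GCGCATGC on the other strand) lay in 8 of the 67, or 11.9%, against 4.57% of 8278 protein-coding genes of the table: Atp5g2, Atp5k, Atp5l, Cox6a1, Ndufa6, Ndufa8, Ndufa11 and Sdhb. The ETS core bound by GABPA (CCGGAAG) was in 16.4% of members and 13.7% of the table's genes. The CCAAT box was in 41.8% and 35.6%, the half-site of oestrogen-related receptors (CAAGGTCA) in 4.48% and 0.858%, the TATA box (TATAAA) in 7.46% and 6.39%, and the YY1 site (AAGATGGC) in 0% and 1.88%. The hypoxia response core ACGTG was in 22.4% and 22.1%. All motifs were searched on both strands over 250 bases, and a match is a description of the letters only.

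Values below are the deposited RPKM (read counts divided by transcript length and library size) after a further normalisation by the authors, with a lowest listed value of 1. Of the 81 members, 71 had a mean of at least 5 over the 12 libraries and 75 were above 1 in every library. The most abundant member per length in complex I was Ndufa4l2, with a mean value of 155. Atp5a1, the alpha subunit of the ATP synthase head, led complex V at 93.0, and Cox5b, a zinc-binding subunit, led complex IV at 106. Uqcrh, the hinge protein, led complex III at 34.3, and Sdha, the flavoprotein, led complex II at 24.3. The median SD of the members' log2 values over the 12 libraries was 0.41, equal to that over all genes, and the steadiest was the complex I subunit Ndufb10, at 0.21 and values from 23.5 to 40.1. The most variable members were isoform genes, Ndufa4l2 with an SD of 2.20 and Cox4i2 with 1.08.

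**Figure D1:**
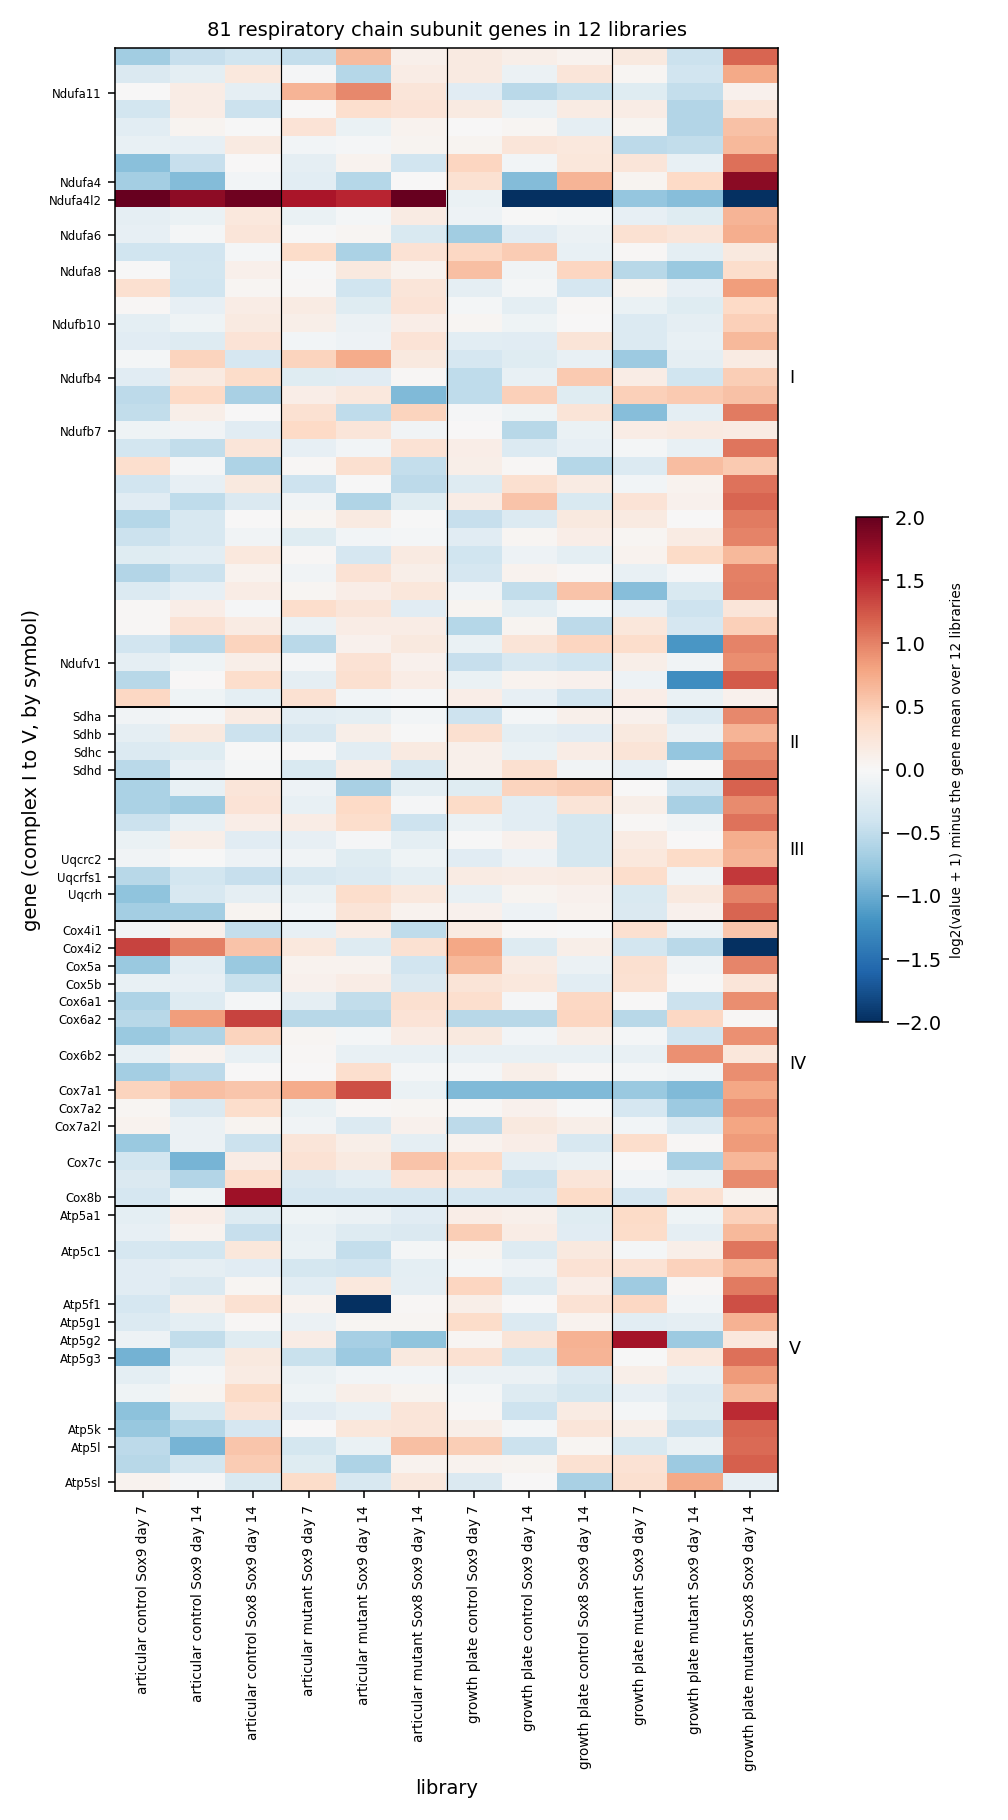
Each row is 1 of the members, grouped by complex, with symbols at the rows of members described in the text, and each column 1 of the 12 libraries; colour gives the log2 of (value + 1) less the member's own mean over the 12 libraries, with the scale ending at -2 and 2. Most rows are pale except in the growth plate Sox8 Sox9 mutant column, which is the highest library for 62 of 81 members, and the rows of Ndufa4l2 and Cox4i2 run against it.

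Libraries that stand apart bear on what follows. In growth plate, Sox9 itself was 314 in the control and 236 in the mutant, 335 and 148, and 308 and 36.0 in the day 7 Sox9, day 14 Sox9 and day 14 Sox8 Sox9 pairs. In articular cartilage it was 408 and 304, and 349 and 309 in the Sox9 pairs, but stood at 282 in the library labelled Sox8 Sox9 mutant against 213 in its control, against its label; Sox8 there was 8.66 against 15.3. Values are for the whole gene and depth is unknown. The growth plate Sox8 Sox9 mutant library was the highest of the 12 for 62 of 81 members, where it was the highest for 22.8% of the 9850 genes above 1 in every library. Its median member value was 24.8, against 10.3 to 14.5 in the other libraries, and members made up 0.56% of its summed values against 0.11% to 0.36%. That share also depends on the total, of which the top gene held 24.0% there and 25.1% to 45.1% elsewhere. The summed member value was 2718 there and 1485 to 1847 elsewhere. Results are given with and without these pairs where that changed a call. Of 8 chondrocyte markers, 7 were in the table; Acan was 1038 to 2599 and Col2a1 313 to 451 in articular controls, where Matn3, a growth plate matrilin, was listed at 1.

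Ndufa4l2 (ENSMUSG00000040280, chr10:127514967-127517154 on mm10), a paralogue of Ndufa4 induced by hypoxia, had the largest fitted difference of the 81 members between control tissues. Its value was 374, 259 and 290 in the articular controls of the 3 sets in the order above, and 68.3, 6.35 and 12 in the matching growth plate controls. The groups did not overlap, with means of 308 ± 59.5 and 28.9 ± 34.2 (SD, n = 3), and the growth plate spread was as large as its mean. In limma's fit over all genes, Ndufa4l2 was lower in control growth plate by a log2 fold change of -4.02 ± 0.72 (SE; Benjamini-Hochberg adjusted p = 0.0123). It was the only 1 of 81 members called between control tissues, where 12.9% of all genes were called, 4.26% higher and 8.63% lower in growth plate. In articular cartilage it ranked first among the members in all 6 libraries, while in growth plate it ranked between 4th and 72nd. With each library centred on the members, the adjusted p was 0.0835 at a log2 fold change of -4.19, and from the 6 control libraries alone it was 0.057; over the 13 alternatives other than leaving out 1 library it ran from 0.00524 to 0.0835. The call also ended without any 1 of the 4 day 14 control libraries: the adjusted p was 0.0557 without the articular and 0.0564 without the growth plate Sox9 control, and 0.08 and 0.0802 without the Sox8 Sox9 controls.

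In mutants, Ndufa4l2 was 233, 216 and 305 in articular cartilage and 43.2, 40.8 and 5.46 in growth plate. All 6 articular libraries lay above all 6 growth plate libraries. Within tissue, mutants overlapped controls: the log2 fold change was -0.29 ± 0.75 in articular cartilage (adjusted p = 0.933) and 0.28 ± 0.75 in growth plate (adjusted p = 0.875). The growth plate pairs went different ways, with log2 ratios of -0.65, 2.51 and -1.01. Its paralogue Ndufa4, the common form, ran from 5.98 to 19.6 in every library except the growth plate Sox8 Sox9 mutant, where it was 43.6. The ratio of Ndufa4l2 to Ndufa4 averaged 40.7 ± 14 in articular controls, 25.8 ± 2.59 in articular mutants, 2.10 ± 2.20 in growth plate controls and 2.06 ± 1.74 in growth plate mutants (SD, n = 3 each). It was lower in growth plate in 6 of 6 matched pairs, by a mean log2 of -4.69 ± 1.81 (SD; exact two-sided sign-flip permutation p = 0.0312, the smallest that 6 pairs can give). Adjusted over the 14 isoform ratio tests, p was 0.146. The 6 pairs are 3 sets taken in 2 genotype groups and are not independent; with the 3 sets as units, the exact p was 0.25, the smallest that 3 sets can give.

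Cox4i2 (ENSMUSG00000009876, chr2:152754173-152765037), the hypoxia-responsive isoform of the regulatory subunit Cox4, was the only 1 of 81 members lower in the mutant in all 6 pairs. It was 70.8, 55.6 and 41.1 in articular controls and 31.6, 22.5 and 33.7 in the matching mutants. In growth plate it was 47.1, 22.7 and 29.7 in controls and 21, 18.5 and 2.75 in mutants. Groups did not overlap in either tissue, although the lowest growth plate control exceeded the highest mutant by little. Over all genes, 2.51% were lower in all 6 pairs. The fitted log2 fold change was -0.89 ± 0.49 in articular cartilage (limma, adjusted p = 0.517) and -1.48 ± 0.49 in growth plate (adjusted p = 0.0866), so neither passed the threshold of 0.05. Without the growth plate Sox8 Sox9 pair, the growth plate value was -0.70 (adjusted p = 0.224), and without the growth plate Sox9 day 14 mutant it was -1.98 (adjusted p = 0.0324). Over the 13 alternatives other than leaving out 1 library the adjusted p ran from 0.0667 to 0.295.

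Its common counterpart Cox4i1 stayed between 32.1 and 68.7, with log2 fold changes in the mutants of -0.03 ± 0.24 in articular cartilage and 0.19 ± 0.24 in growth plate. The ratio of Cox4i2 to Cox4i1 averaged 1.32 ± 0.24 in articular controls, 0.75 ± 0.31 in articular mutants, 0.67 ± 0.21 in growth plate controls and 0.28 ± 0.21 in growth plate mutants (SD, n = 3 each). In that order, articular mutants at 0.44 to 1.05 and growth plate controls at 0.48 to 0.90 overlapped, whereas articular controls lay above articular mutants and growth plate controls above growth plate mutants without overlap. The ratio was lower in the mutant in 6 of 6 pairs by a mean log2 of -1.35 ± 1.41 (SD), and lower in growth plate in 6 of 6 pairs by -1.47 ± 1.65. Each gave an exact two-sided sign-flip permutation p of 0.0312, the smallest possible, and 0.146 after adjustment over the 14 tests; with the 3 sets as units each gave 0.25, again the smallest possible. The largest drop was in the growth plate Sox8 Sox9 mutant, where the ratio was 0.040 against 0.65 in its control. Between tissues, the Sox9 day 14 mutants hardly differed, at 0.437 in articular cartilage and 0.434 in growth plate. The Sox8 Sox9 mutants differed most, at 1.05 and 0.040.

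**Figure D2:**
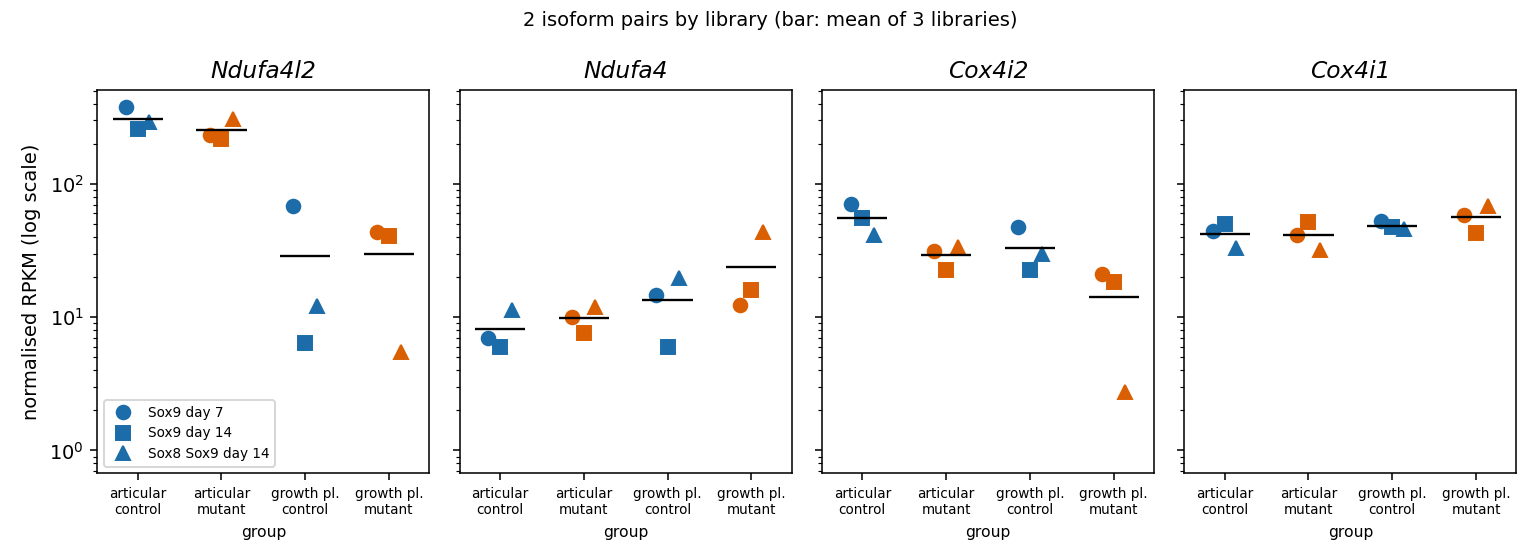
The deposited values of the paired isoforms Ndufa4l2 with Ndufa4 and Cox4i2 with Cox4i1 are shown by group on a log axis, 1 point per library with its shape giving the set, and bars mark the mean of 3 libraries. Ndufa4l2 is 216 to 374 in articular libraries and 5.46 to 68.3 in growth plate, and in every set Cox4i2 is lower in the mutant than in its control.

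The muscle isoforms were low. Cox7a1 (chr7:30184144-30186078) was 4.04, 4.63 and 4.39 in articular controls and was listed at 1 in all 3 growth plate controls. The fitted log2 fold change of -1.42 ± 0.50 was not called (limma, adjusted p = 0.112), and it was called without the articular Sox8 Sox9 pair (adjusted p = 0.0415; range over the 12 alternatives other than leaving out 1 library, 0.0153 to 0.167). In mutants Cox7a1 was 5.18, 8.06 and 2.36 in articular cartilage and 1.21, 1 and 5.31 in growth plate. Cox6a2 was above 1 in 6 libraries, at most 6.54, and Cox8b in 5, at most 7.2; both were highest in the articular Sox8 Sox9 control. The testis isoform Cox6b2 exceeded 1 in 4 libraries and reached at most 3.20.

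Skeletal muscle markers also varied between libraries. The summed value of 14 muscle genes was 18.2, 722 and 703 in articular controls, 34.1, 570 and 106 in articular mutants, 96.5, 101 and 486 in growth plate controls, and 58.6, 474 and 106 in growth plate mutants. In the Sox9 day 7 control libraries of both tissues 12 of the 14 were listed at 1. Cox6a2 was above 1 only in libraries with a muscle sum of at least 106, yet was at 1 in the articular Sox9 day 14 mutant, whose sum was 570. Cox7a1 was 4.04 in the articular library with the lowest muscle sum. It was listed at 1 in the growth plate Sox8 Sox9 control and the growth plate Sox9 day 14 mutant, whose sums were 486 and 474. The part of muscle in the levels of these isoforms was not tested.

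The other isoform ratios, of Cox7a2l, a supercomplex assembly factor, to Cox7a2, of Cox6a2 to Cox6a1, and of the c-ring genes Atp5g1 and Atp5g2 to Atp5g3, gave exact permutation p from 0.0625 to 0.906 and adjusted p from 0.175 to 0.906. For Cox7a1 over Cox7a2, the mean log2 difference was -1.69 ± 1.0 (SD) between growth plate and articular cartilage, lower in 5 of 6 pairs (exact p = 0.0625). The mutant difference was 0.58 ± 0.66, higher in 5 of 6 pairs (exact p = 0.125). Over the 3 sets both gave an exact p of 0.25. Cox7a1 was above 1 in 8 libraries and Cox6a2 in 6, so these ratios rest partly on values listed at 1. In the growth plate Sox9 day 14 pair Cox7a1 was listed at 1 in both libraries. The ratio was 0.075 in that control and 0.14 in the mutant, which reflects Cox7a2 alone. The c-ring genes encode the same mature protein, and the labels do not say how reads shared between them were counted. Atp5g3 was the most abundant of them, at 6.69 to 30.6 against 1.83 to 4.52 for Atp5g1.

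In articular cartilage, 0 of the 81 members passed an adjusted p of 0.05 between mutant and control, where 0.353% of all genes were called (limma over 12 libraries). At an unadjusted p under 0.05 there were 5 members, or 6.17%, against 12.3% of all genes. Fitted log2 fold changes ran from -0.89 (Cox4i2) to 0.74 (Cox7c) with a median of 0.08, against a median of 0.13 over all genes, and the median SE was 0.25. By complex the medians were 0.10, 0.07, 0.19, 0.10 and -0.04 for I to V. The highest values in complexes IV, V and I were those of Cox7c at 0.74 ± 0.26 (adjusted p = 0.296), the dimerisation subunit Atp5k at 0.72 ± 0.26 (adjusted p = 0.316) and the membrane arm subunit Ndufa11 at 0.64 ± 0.23 (adjusted p = 0.296). Ndufa11 was 8.16, 9.11 and 7.02 in controls and 13.7, 16.7 and 9.79 in mutants, without overlap. Atp5k went from 20.5, 23.3 and 27.5 to 35.3, 41.5 and 42.0, also without overlap. The peripheral stalk gene Atp5f1 was listed at 1 in the articular Sox9 day 14 mutant and ran from 6.34 to 21.5 elsewhere.

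Pair by pair, 61, 48 and 39 of the 81 members were higher in the articular mutant, with median log2 ratios of 0.22, 0.10 and 0.00 in the same order of sets. Over all 14712 genes, 9446, 8005 and 8505 were higher, with medians of 0.16, 0.06 and 0.07. The count of 0 called members held in all 12 alternatives and in each fit without 1 library. Marker sums of other cells overlapped between the articular groups for neutrophils (97.0 to 1118 in controls, 217 to 955 in mutants) and red cells (120 to 470 and 165 to 808), and chondrocyte markers were 2791 to 4877 and 1879 to 2273. The 7 measured chondrocyte markers had a median log2 fold change of -0.06, with 2 above 0 and 0 called. Macrophage sums (53.3 to 271 and 249 to 294) and adipocyte sums (5.53 to 104 and 52.6 to 194) overlapped too. All 5 measured markers of each had a fold change above 0, with median log2 values of 1.17 and 1.21, and 0 were called. Osteoblast and osteocyte markers summed to 2949 to 4995 in articular controls and 5140 to 6028 in articular mutants. Of these 8 bone markers, 4 had a fold change above 0, the median log2 value was 0.05, and 0 were called. The part of all these cells in the articular values was not tested.

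In the growth plate, 2 members rose and 0 fell, where 10.7% of all genes were called, 7.92% as higher and 2.82% as lower. They were Ndufa6, an accessory subunit of complex I that holds the mitochondrial acyl carrier protein, and Uqcrc2, a core protein of complex III. At an unadjusted p under 0.05 there were 12 members, or 14.8%, against 27.1% of all genes. Fitted log2 fold changes ran from -1.48 (Cox4i2) to 0.78 (Ndufa6), and 66 of 81 were above 0, against 10186 of all 14712 genes. The median was 0.19 and that of all genes 0.20. By complex the medians were 0.18, 0.23, 0.35, 0.18 and 0.24 for I to V.

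Ndufa6 (ENSMUSG00000022450, chr15:82350140-82354322), whose promoter is printed above, was 33.9, 47.2 and 51.2 in growth plate controls and 69.2, 66.2 and 92.9 in the matching mutants. The groups did not overlap, and all pairs rose. The log2 fold change was 0.78 ± 0.20 (SE; limma, adjusted p = 0.0338). In articular cartilage it was 49.7, 54.2 and 65.7 in controls and 55.3, 57.1 and 44.9 in mutants, with a log2 fold change of -0.10 ± 0.20, and the difference between tissues of 0.88 ± 0.29 was not called (adjusted p = 0.315). Uqcrc2 (ENSMUSG00000030884, chr7:120635176-120659524) was 10.0, 11 and 9.10 in growth plate controls and 13.9, 15.8 and 19.6 in mutants. It rose in all 3 pairs, by 0.65 ± 0.17 (adjusted p = 0.0343), and lay between 9.86 and 11.8 in all articular libraries. Neither call held without the growth plate Sox8 Sox9 pair, at 0.74 (adjusted p = 0.125) for Ndufa6 and 0.46 (adjusted p = 0.205) for Uqcrc2. Over the 13 alternatives other than leaving out 1 library the adjusted p ran from 0.023 to 0.211 for Ndufa6 and from 0.0253 to 0.369 for Uqcrc2.

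The accessory subunit Ndufa8 had the lowest fold change of complex I in growth plate. It was 38.5, 24.0 and 34.3 in growth plate controls and 16.7, 14.6 and 32.3 in mutants, lower in all 3 pairs though the groups overlapped. Its log2 fold change of -0.64 ± 0.24 was not called (adjusted p = 0.112), but with each library scaled to the median ratio over genes it was -0.86 and called (adjusted p = 0.0455, with 0.0426 to 0.307 over the 13 alternatives other than leaving out 1 library), while Ndufa6 was then at 0.56 (adjusted p = 0.0645). That scaling moved the median log2 ratio of all genes in the growth plate pairs from 0.30, 0.00 and 0.20 to -0.02, 0.00 and -0.03. Ndufb7, an accessory subunit, was higher in the mutant in all 6 pairs of both tissues, as were 12% of all genes. Of complex II, Sdha had the highest fold change in the growth plate mutant, 0.38 ± 0.22 (adjusted p = 0.309), and Sdhb, Sdhc and Sdhd were at 0.28, 0.10 and 0.17; none was called.

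The growth plate pairs were unlike each other. In the Sox9 day 7 and Sox9 day 14 pairs, 37 and 33 of the 81 members were higher in the mutant, with median log2 ratios of 0.00 and -0.10. Over all 14712 genes, 9716 and 7101 were higher in these pairs, with medians of 0.30 and 0.00. In the Sox8 Sox9 day 14 pair, 74 of 81 members were higher with a median of 0.84, against 9311 of all genes with a median of 0.20. Scaled to the median ratio over genes, the 3 medians were -0.38, -0.09 and 0.56. In that pair all complexes took part, with 34 of 37, 4 of 4, 8 of 8, 13 of 16 and 15 of 16 members higher in I to V and medians of 0.77, 0.89, 1.06, 0.68 and 0.89. Among them, the NADH-binding subunit Ndufv1 was 7.17 in the control and 19.5 in the mutant, the Rieske protein gene Uqcrfs1 12.6 and 31.3, the nuclear-encoded accessory subunit gene Cox5a 18.0 and 39.7, and Atp5c1 of the ATP synthase stalk 26.3 and 49.6. The 7 members that were not higher were Cox4i2, Ndufa4l2, Atp5g2, Cox6a2, Cox8b, Ndufa8 and Ndufb4. This is 1 pair without a replicate, so it carries no test. Without it, 0 members were called in growth plate and the median fold change of the members was -0.03.

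**Figure D3:**
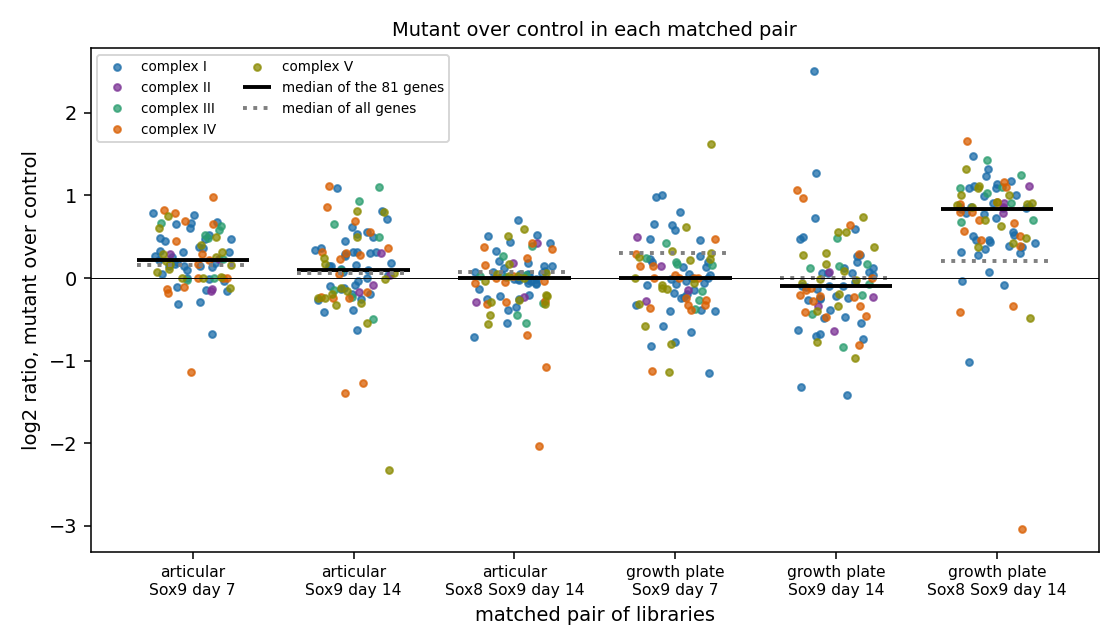
Each point is the log2 ratio of mutant to control for 1 member in 1 matched pair, coloured by complex, with solid bars for the median of the members and dotted bars for that of all genes. The median of the members lies between -0.10 and 0.22 in the articular pairs and both Sox9 growth plate pairs, and 74 of 81 members lie above 0 in the growth plate Sox8 Sox9 day 14 pair, while Cox4i2 is at -3.03.

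Other mitochondrial lists differed in size in that pair. Cycs, for the cytochrome c that carries electrons from complex III to complex IV, was 5.23 in the control and 12.9 in the mutant, and Cyc1, a subunit of complex III, 11.1 and 37.1. The median log2 ratio was 0.81 for 22 genes of the citric acid cycle and pyruvate dehydrogenase, with 21 higher, and 0.76 for 15 of fatty acid oxidation, all higher. It was 0.48 for 24 of import, cristae and nucleotide carriers, 0.47 for 72 mitochondrial ribosomal proteins, 0.35 for 9 complex I assembly factors and 0.11 for 8 of mitochondrial DNA maintenance. Outside mitochondria it was 0.44 for 37 proteasome genes, -0.06 for 79 cytosolic ribosomal proteins and -0.13 for 19 of glycolysis.

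Of the mitochondrial lists, Sucla2 and Idh3b of the citric acid cycle were called higher in the growth plate mutant, as was Ppargc1b, a coactivator of mitochondrial biogenesis. Among mitochondrial ribosomal proteins, Mrps18a was called higher and Mrps6 lower. Ppargc1b was 1.55, 1.31 and 3.23 in controls and 5.66, 3.62 and 9.91 in mutants, with a log2 fold change of 1.25 ± 0.23 (limma, adjusted p = 0.00875). It rose in all 3 pairs, and the groups did not overlap. Sucla2 went from 6.53, 5.57 and 5.76 to 9.39, 9.33 and 12.5, by 0.71 ± 0.18 (adjusted p = 0.0322). Mrps6, of the small mitochondrial ribosomal subunit, fell by 1.86 on the log2 scale (SE 0.20; adjusted p = 0.000973). Outside mitochondria, the immunoproteasome subunit gene Psmb10 was called higher (1.07 ± 0.26, adjusted p = 0.0288) and Eno1, the glycolytic enolase, lower (-0.86 ± 0.24, adjusted p = 0.0484). No gene of complex I assembly, other assembly, fatty acid oxidation, import or mitochondrial DNA maintenance was called there.

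Markers of other cells changed in the same growth plate pairs. All 8 neutrophil markers were higher in the mutant in each of the 3 pairs, and their summed value was 35.6 to 56.9 in controls and 375 to 1388 in mutants. Macrophage markers summed to 60.3 to 134 in controls and 175 to 595 in mutants, red cell markers to 53.0 to 221 and 233 to 662, and osteoblast and osteocyte markers to 6725 to 12890 and 19546 to 23112. Osteoclast markers, of a cell rich in mitochondria, summed to 1083 to 1441 in controls, 1779 and 1329 in the Sox9 mutants and 3439 in the Sox8 Sox9 mutant. Chondrocyte markers summed to 21617 to 33374 in controls and 1541 to 5190 in mutants, with the lowest sum in the Sox8 Sox9 mutant. In captured tissue, fewer cells of a type and less RNA per cell cannot be told apart, and the part of these cells in the values of the members was not tested.

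Between control tissues, the members apart from Ndufa4l2 were not called in the fit over all 12 libraries. Of the 81, 52 had a fold change above 0, against 5872 of all 14712 genes. The median of the members was 0.16 in favour of growth plate, and that of all genes was -0.10. At an unadjusted p under 0.05 there were 8 members, or 9.88%, against 26.3% of all genes. Complex III had the highest median, 0.42, and complex I the lowest, 0.07. Cox6a1, the common isoform of its subunit, was 24.1, 31.4 and 36.4 in articular controls and 47.8, 37.0 and 50.7 in growth plate controls. These did not overlap, and the log2 fold change of 0.55 ± 0.20 was not called (limma, adjusted p = 0.117); after scaling to the median ratio over genes it was 0.70 (adjusted p = 0.0471), and over the 13 alternatives other than leaving out 1 library the adjusted p ran from 0.046 to 0.39.

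Genes of glycolysis, the other main source of ATP, were lower in control growth plate. Of 19 glycolytic genes, 11 were called lower in growth plate and 0 higher, with a median log2 fold change of -0.94. Over all genes, 8.63% were called lower and 4.26% higher. The glucose transporter gene Slc2a1 was 95.6, 85.1 and 51.8 in articular controls and 30.7, 13.1 and 15.3 in growth plate controls (-1.97 ± 0.30, adjusted p = 0.00337). Idh2, the mitochondrial NADP-dependent isocitrate dehydrogenase, was higher in growth plate by 0.95 ± 0.19 (adjusted p = 0.0127). Pdp1, a phosphatase that activates pyruvate dehydrogenase, was lower by a log2 fold change of -0.91 ± 0.24 (adjusted p = 0.043), and Surf1, a complex IV assembly factor, was lower by -0.81 ± 0.18 (adjusted p = 0.0211). Of the other mitochondrial lists, the prohibitin gene Phb2 and the ribosomal gene Mrps6 were called higher, and Sirt1 and Mrpl46 lower. Of 79 cytosolic ribosomal proteins, 9 were called higher and 0 lower, where 4.26% of all genes were called higher. Between these controls, neutrophil marker sums were 97.0 to 1118 in articular cartilage and 35.6 to 56.9 in growth plate. Osteoclast sums were 43.4 to 273 and 1083 to 1441, and chondrocyte sums 2791 to 4877 and 21617 to 33374. Osteoblast and osteocyte sums were 2949 to 4995 and 6725 to 12890, so in articular controls they were of the size of the chondrocyte sums. Of these 8 bone markers, 2 were called higher in growth plate and 1, Sost, lower (-2.87 ± 0.33, limma, adjusted p = 0.000874). Macrophage sums were 53.3 to 271 and 60.3 to 134, with 2 of 5 markers called higher and 2 lower in growth plate. The part of these cells in the tissue differences was not tested.

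The mutant effect was not called different between tissues for any of the 81 members (limma interaction, 0 called, where 0.184% of all genes were called, 0.0476% in the higher and 0.136% in the lower direction); 4 of them, or 4.94%, had an unadjusted p under 0.05, against 10.7% of all genes. The differences, growth plate less articular, ran from -0.82 (Ndufa8) to 1.15 (Atp5f1), with a median of 0.14 against 0.06 over all genes. That of Atp5f1, 1.15 ± 0.43 (adjusted p = 0.386), was 0.70 and not called without the articular library in which it was listed at 1.

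**Figure D4:**
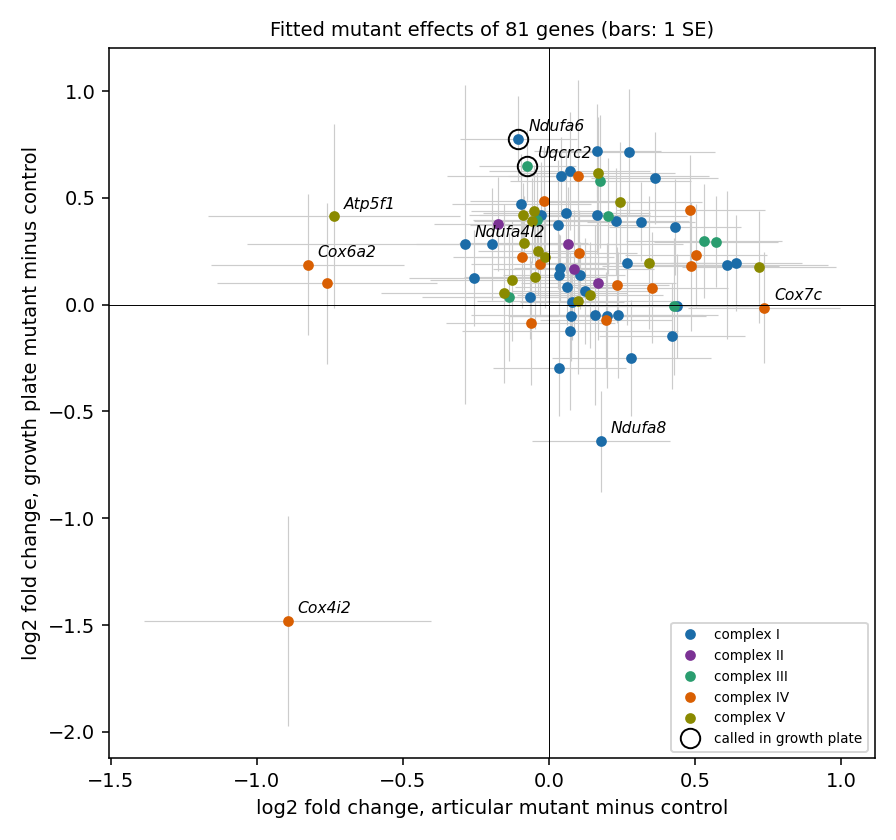
Each point is 1 of the 81 members, with its fitted log2 fold change in the articular mutant on the horizontal axis and in the growth plate mutant on the vertical axis; bars are 1 SE and colours give the complex. The circled members, Ndufa6 at 0.78 and Uqcrc2 at 0.65 in growth plate, passed an adjusted p of 0.05 there, and Cox4i2 stands apart at -0.89 and -1.48 without passing.

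Day and genotype can be set side by side only as 1 pair against 1 pair. Between day 14 and day 7 of the Sox9 pairs, the median difference in log2 ratio over members was -0.09 in articular cartilage and -0.10 in growth plate, against -0.05 and -0.29 over all genes. After scaling to the median ratio, the member values were -0.04 and 0.25, against -0.01 and 0.04 over all genes. The sign in growth plate thus depended on the scaling. Between Sox8 Sox9 and Sox9 at day 14 it was -0.16 in articular cartilage, against 0.00 over all genes. In growth plate it was 0.90, with 71 of 81 members above 0, against 0.18 over all genes with 59.8% above 0. After scaling to the median ratio these were 0.62 and -0.07. The growth plate value rests on the single Sox8 Sox9 mutant library in which most members were highest.

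As a description over the 12 libraries, the mean log2 value of the complex I genes was 4.49 in the growth plate Sox8 Sox9 mutant and 3.69 to 3.98 elsewhere. The genes outside the rule whose log2 values followed it most closely were Gmfb, Kdm1a and Dnajc13, with Pearson r of 0.957, 0.95 and 0.942, and that single library carries much of the range. Cox4i2 ran opposite to the complex I mean, with r of -0.75.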

How the data were processed

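RNA was measured in 12 laser-captured cartilage libraries. Per the file headers, the authors deposited RPKM values after a further normalisation (NRPKM) in 1 table. The sources used here give neither that step nor the aligner, counter, strand setting and annotation, which leaves overlapping and near-identical genes uncertain. The submitters' processing notes name mm10 as the build. No listed value is below 1, and 1299 to 2823 genes per library equal 1. Whole reads could not be recovered, so depth is unknown, no counting interval is given, and the count test planned for raw counts did not apply. In each library the top gene held 24.0 to 45.1% of summed values. All 12 columns were mapped by the labels, and 0 value columns were left out.

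Values were taken as log2(value + 1), so folds of low genes are understated, and tested over 14712 genes and 12 libraries in R 4.3.3 with limma 3.58.1 (empirical Bayes, robust, with trend; statmod 1.5.0). The model of mutant effects held set and group, and that of tissue effects and the interaction a term per genotype and day. Benjamini-Hochberg adjustment ran over all genes, and adjusted p under 0.05 was called. The script was checked on simulated data. Nothing says that libraries came from separate animals, so p-values measure the spread between these libraries, which may be technical. The 3 libraries of a group are 1 from each set, and the sets differ in day or in the floxed genes. Differences between sets in the mutant or tissue effect are therefore part of that spread. The SDs over 3 libraries also hold differences in level between sets. Deviations from the group means correlated by 0.09 to 0.42 within sets. Isoform ratios were tested over 6 matched pairs by exact sign-flip permutation, which takes the pairs of a set as independent, and over the 3 sets. Coordinates are those of GENCODE M21, which held all 81 members, and promoters those of RefSeq on GRCm38.p6.

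The members and lists were chosen with earlier results of these data known. Named are the complex II and isoform genes, called members, the most abundant member of each complex and its highest and lowest mutant effects, up to 2 called genes per other list, and the 3 genes most like complex I. Other members named, among them Ndufb7, Ndufb10, Ndufv1, Uqcrfs1, Cox5a and Atp5c1, were chosen after their values were seen. The values of 1 member are not reported here. Alternatives changed the value added, the filter, the scaling, the genes or libraries fitted and the block; leaving out the growth plate Sox8 Sox9 pair, centring on the members and the sets as units were added after seeing the data.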

Additional observations from a re-analysis of the deposited data

How the results depend on the processing

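The articular mutant and the interaction had 0 called members under all 12 alternatives each and without any 1 library. In the growth plate mutant, the 2 called members became 4 with a mean value filter of 5 or protein-coding genes alone (Ndufs3, Ndufv1, Uqcrc2 and Ndufa6), 1 with quantile normalisation or without the articular Sox8 Sox9 pair (Ndufa6), and 1, Ndufa8 as lower, with median ratio scaling or centring on the members. They became 0 with the Sox9 sets alone, without the growth plate Sox8 Sox9 pair, with no replicate block, with a replicate block for each matched pair, and from the 6 compared libraries alone. That last fit also called 0 of all 14712 genes (limma; 2755 at an unadjusted p under 0.05), against 1580 over 12 libraries. Without 1 library the count ran from 0 to 6. It was 6 without the growth plate Sox9 day 14 mutant, including Cox4i2 as lower; 0 without any growth plate control, or without the articular Sox9 day 7 or Sox8 Sox9 control; and 1, Ndufa8 as lower, without the growth plate Sox8 Sox9 mutant. Between control tissues, the 1 called member became 2 with quantile normalisation or median ratio scaling (Cox6a1 added), and 2 with the Sox9 sets alone, without either Sox8 Sox9 pair or with no replicate block (Cox7a1 added). It was still 1 with centring on the members and from the 6 control libraries alone, but was then Cox7a1, not Ndufa4l2. Without 1 library it ran from 0 to 4, with 0, Ndufa4l2 lost, where a day 14 control of either tissue was left out. Both tissues of a genotype and day form 1 block there, so leaving out 1 of them removes the weight of the other. Of the 14 isoform ratio tests, none passed adjustment, over 6 pairs or over 3 sets. The causes of these shifts were not tested. The unknown depth limits low members, such as the muscle isoforms, most.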
